A study of Mus musculus with 8 samples.

Results

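Peaks assigned to Rab GTPase genes and to the Tbc1d genes were taken from the deposited list of KLF13 peaks in HT22 cells. They were chosen by gene symbol: Rab followed by a number and at most 1 letter, or a symbol beginning with Tbc1d and a number. The rule took 47 of the 9506 peaks, assigned to 44 genes. Of these, 30 peaks belonged to 28 Rab genes and 17 to 16 Tbc1d genes. HT22 is an immortalised mouse hippocampal neuronal line. All libraries came from HT22-BirA cells, which stably make the bacterial biotin ligase BirA and were transfected with the pTO-Klf13Bio plasmid so that KLF13, a zinc finger transcription factor, carried biotin. Chromatin was collected after 24 h, and 4 libraries of chromatin streptavidin precipitation (ChSP) were set against 4 input libraries of the same cells with no precipitation. A pulldown from cells without tagged KLF13 is not among the libraries, so capture on streptavidin that does not depend on KLF13 cannot be told apart from binding at any peak below. The list gives 1 value per peak over all libraries, so no fold below has a replicate error, and the libraries are numbered without a statement that they came from separate cultures. Read depth is unknown.

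Rab proteins are small GTPases that sit on the membranes of particular compartments and, when bound to GTP, recruit the effectors that move, tether and fuse vesicles. Guanine nucleotide exchange factors switch them on, and GTPase activating proteins, most of which share the TBC domain that names the Tbc1d genes, switch them off. In neurons they carry receptors through endosomes, supply membrane to axons and dendrites, and control the release of synaptic vesicles. KLF13 belongs to a family of factors that recognise GC-rich elements, the GC box and the CACCC element.

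Promoter sequences are shown first for the members on which the comparisons below turn. The 3 Rab5 genes, which encode closely related early endosome GTPases, differed in whether a peak was present, as did the paralogs Tbc1d1 and Tbc1d4. The Tbc1d1 window is at a start site 74.1 kb inside its gene, and that of Tbc1d4 covers the outermost 5′ end. Rab40c had one of the higher folds among Rab genes, and the Rab35 promoter lay under a peak credited to another gene. Each sequence is from RefSeq on GRCm38.p6 and runs 5′ to 3′ on the gene's strand, from 250 bases before a transcription start site (TSS) to 50 after it. Capitals mark every match to GGGCGG, the GC box core, or to CACGCCC, a longer KLF element, on either strand. Neighbouring matches can overlap and then merge into 1 run of capitals.
Rab5a (chr17:53478984-53479283, plus strand, overlapped by a peak): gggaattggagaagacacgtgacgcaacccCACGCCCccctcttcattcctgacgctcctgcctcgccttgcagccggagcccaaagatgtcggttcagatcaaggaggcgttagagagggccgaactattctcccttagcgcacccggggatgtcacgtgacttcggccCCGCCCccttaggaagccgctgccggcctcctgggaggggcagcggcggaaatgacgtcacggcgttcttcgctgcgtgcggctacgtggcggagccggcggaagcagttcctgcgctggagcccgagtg
Rab5b (chr10:128696219-128696518, minus strand, no peak): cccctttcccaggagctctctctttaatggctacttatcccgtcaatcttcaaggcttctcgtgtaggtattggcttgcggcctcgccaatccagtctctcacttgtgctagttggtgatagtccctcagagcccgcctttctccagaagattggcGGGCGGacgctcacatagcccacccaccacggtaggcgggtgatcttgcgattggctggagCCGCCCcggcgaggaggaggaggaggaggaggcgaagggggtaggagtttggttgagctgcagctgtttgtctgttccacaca
Rab5c (chr11:100738166-100738465, minus strand, no peak): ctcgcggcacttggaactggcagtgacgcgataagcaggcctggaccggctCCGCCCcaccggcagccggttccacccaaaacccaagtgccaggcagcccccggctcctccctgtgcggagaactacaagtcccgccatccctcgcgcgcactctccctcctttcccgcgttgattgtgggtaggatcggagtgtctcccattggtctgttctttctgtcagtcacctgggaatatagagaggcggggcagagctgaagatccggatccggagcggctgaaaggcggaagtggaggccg
Tbc1d1 (chr5:64230107-64230406, plus strand, overlapped by a peak): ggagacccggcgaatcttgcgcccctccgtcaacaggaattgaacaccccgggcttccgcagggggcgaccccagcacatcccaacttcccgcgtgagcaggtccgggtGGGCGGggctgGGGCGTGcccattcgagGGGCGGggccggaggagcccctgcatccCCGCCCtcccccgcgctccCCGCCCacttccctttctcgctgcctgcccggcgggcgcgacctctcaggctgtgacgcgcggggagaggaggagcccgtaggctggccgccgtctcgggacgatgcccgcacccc
Tbc1d4 (chr14:101609142-101609441, minus strand, no peak): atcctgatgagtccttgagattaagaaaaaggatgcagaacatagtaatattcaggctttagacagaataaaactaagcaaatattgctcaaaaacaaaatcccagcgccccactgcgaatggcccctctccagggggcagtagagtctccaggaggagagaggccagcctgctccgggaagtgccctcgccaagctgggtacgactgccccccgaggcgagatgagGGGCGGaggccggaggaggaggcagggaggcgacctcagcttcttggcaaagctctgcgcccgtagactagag
Rab40c (chr17:25919665-25919964, minus strand, overlapped by a peak): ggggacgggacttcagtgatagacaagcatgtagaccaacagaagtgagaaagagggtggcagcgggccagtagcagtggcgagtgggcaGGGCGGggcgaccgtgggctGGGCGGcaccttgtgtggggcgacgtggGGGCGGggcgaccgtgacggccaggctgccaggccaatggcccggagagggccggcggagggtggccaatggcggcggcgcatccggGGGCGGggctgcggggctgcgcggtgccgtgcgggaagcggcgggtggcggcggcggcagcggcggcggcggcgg
Rab35 (chr5:115631737-115632036, plus strand, overlapped by a peak): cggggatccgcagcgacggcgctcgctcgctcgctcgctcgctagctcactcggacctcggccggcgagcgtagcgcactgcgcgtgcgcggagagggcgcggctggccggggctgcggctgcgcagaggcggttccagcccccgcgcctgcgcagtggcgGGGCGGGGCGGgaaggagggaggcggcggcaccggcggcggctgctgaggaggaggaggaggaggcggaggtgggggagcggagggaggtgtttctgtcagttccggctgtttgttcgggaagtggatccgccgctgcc
All 7 windows held at least 1 GC box core. Tbc1d1 and Rab40c had 4 each, Rab35 and Rab5b had 2, and Rab5a, Rab5c and Tbc1d4 had 1. The longer element was found in 2 of the 7, Rab5a and Tbc1d1, with 1 match each. All marked matches of the Rab5a window lie upstream of its peak, which starts at 53479201. A GC box core was therefore present both in windows with a peak and in windows without one.

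The first question was how many of these genes had a peak at a promoter, taken as within 1 kb of a TSS. Of 59 protein-coding Rab genes in a RefSeq gene table, 28 had one, or 47.5% (exact 95% binomial interval 34.3 to 60.9). Over all 21900 protein-coding genes the share was 30.9%. Of 30 Tbc1d genes 15 had one, or 50% (31.3 to 68.7). Both shares lay above the background, the Tbc1d share with an interval that almost reached it. Over named genes only the background was 33.5%, which lies inside the Tbc1d interval and outside that of the Rab genes. These intervals cover counting error only, and genes are not replicates of a condition, so no test was made.

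Among the Rabs of the early and recycling endosome, 10 of 16 genes had a promoter peak (62.5%, exact 95% interval 35.4 to 84.8). For Rabs of the endoplasmic reticulum (ER) and Golgi the count was 7 of 16 (43.8%, 19.8 to 70.1). For Rabs of the late endosome, lysosome-related organelles and cilium, together with the less studied Rab42 and Rab44, it was 5 of 12 (41.7%, 15.2 to 72.3). For Rabs of exocytosis and polarised transport it was 4 of 13 (30.8%, 9.09 to 61.4), next to the background share of 30.9%. Both Rab40 genes, which encode adaptors of a cullin ubiquitin ligase, had one. The intervals of these groups overlap, and the differences between groups were not tested.

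**Figure D1:**
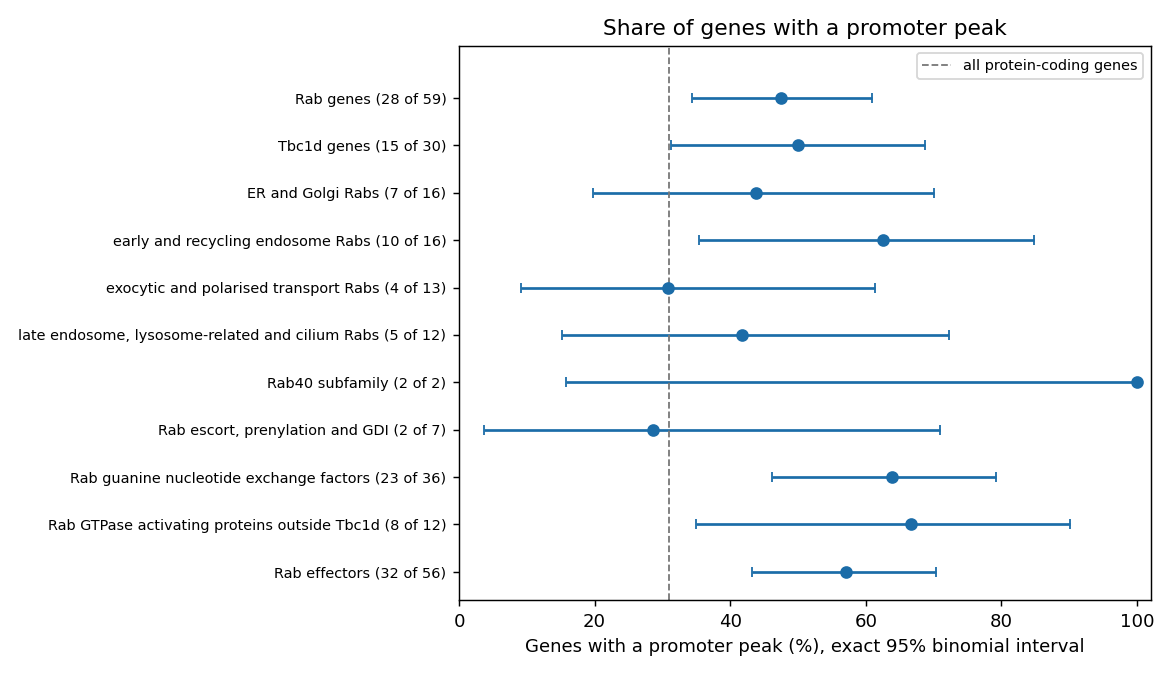
Share of genes with a promoter peak (x axis, percent) for Rab and Tbc1d genes, for the Rab genes by compartment and for other genes of the Rab cycle, with counts in the row names; bars are exact 95% binomial intervals and the dashed line is the share over all protein-coding genes. The 28 of 59 Rab genes and 15 of 30 Tbc1d genes sit to the right of the line at 30.9%, and the 4 of 13 exocytic Rab genes sit on it.

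Fold here is the authors' linear ratio of ChSP over input. Over the 29 Rab promoter peaks its median was 20.6 (quartiles 15.4 and 25.6), and over the 16 Tbc1d promoter peaks 25.8 (20.6 and 33.5). Over all 7599 promoter peaks the median was 22.2 (16.5 and 30.3). Of the 45 member peaks, 21 (46.7%) were above that median, 11 below the lower quartile and 12 above the upper one. The members' folds were thus spread much like those of promoter peaks in general.

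ER and Golgi Rabs held the highest fold of any Rab gene, at Rab2a. The median over the group's 8 promoter peaks was 20.3, and 5 of the 8 were not above the median of all promoter peaks. Rab2a (ENSMUSG00000047187), which acts between the ER and the Golgi, reached 49.6-fold across 1100 bp of chromosome 4 around its start site, from 8535301 to 8536400 (the authors' p = 6.49e-19). That fold ranked 242 among the 7599 promoter peaks. Rab43 (ENSMUSG00000030055), a Golgi Rab, had 31.3 at chromosome 6, 87811401 to 87812100 (700 bp, over the TSS, the authors' p = 5.77e-20). Rab6a, which runs retrograde traffic at the Golgi, had 23.7, Rab39 had 22.2, Rab33b had 17.9 and Rab1a, a regulator of ER-to-Golgi transport, had 17.6. Rab6b, the neuron-enriched relative of Rab6a, had 2 promoter peaks 100 bp apart with folds of 18.5 and 9.79. The first covered its TSS at chromosome 9, 103111501 to 103112300 (the authors' p = 1.26e-07), and the second lay 327 bp downstream of it at 103112401 to 103112700 (the authors' p = 4.01e-07). No peak was assigned to Rab1b, Rab2b, Rab18, Rab19, Rab30, Rab33a, Rab34, Rab36 or Rab39b.

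Early and recycling endosome Rabs had 10 assigned promoter peaks with a median fold of 15.0, and 8 of the 10 were below the 22.2 of all promoter peaks. Peaks of 41.6-fold and 32.2-fold that covered the starts of Rab35 and Rab22a, from the same group, were assigned to other genes and are not among the 10. The assigned peaks above 22.2 were those of Rab5a (ENSMUSG00000017831), which drives early endosome fusion, and Rab14 (ENSMUSG00000026878), which acts between endosomes and the Golgi. Rab5a reached a fold of 33.8 on chromosome 17, 53479201 to 53479900 (700 bp, over the TSS, the authors' p = 8.26e-15). Rab14 had 29.7 at chromosome 2, 35200201 to 35201100 (900 bp, starting 20 bp downstream of the TSS, the authors' p = 9.33e-23). Rab4a and Rab4b, which return receptors quickly to the surface, had 20.6 and 12.8, Rab15 had 17.8 and Rab21, a Rab of integrin traffic, had 14.6.

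The recycling endosome GTPases Rab11a and Rab11b had nearly the same fold. Rab11a had 12.2 at chromosome 9, 64737301 to 64737800 (500 bp, over the TSS, the authors' p = 4.19e-10), and Rab11b had 12.5 in a peak 300 bp wide that began 386 bp downstream of its TSS. Rab20 had 15.4 in a peak only 200 bp wide, 202 bp upstream of its TSS, and the authors' p of 9.75e-06 was close to the largest in the list, 9.99e-06. Rab31 (ENSMUSG00000056515), a relative of Rab22a, had the lowest fold of all members, 8.97, at chromosome 17, 65772401 to 65772700 (300 bp, 52 bp downstream of the TSS, the authors' p = 7.20e-07). Of the whole list, 9156 peaks had a fold at least as high as that one. Rab31 had a second peak 110 kb away inside the gene, in intron 2 of 2 of the annotated transcript, at 65661701 to 65661900 and 13.2 kb from the assigned TSS (fold 13.6, 200 bp, the authors' p = 5.43e-06). No peak was assigned to Rab5b, Rab5c, Rab17 or Rab25, nor to Rab22a or Rab35, whose starts lay under the peaks given above.

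Of the Rabs of exocytosis and polarised transport, 9 of 13 had no promoter peak, and the 30.8% with one was next to the 30.9% of all protein-coding genes. Rab3a, the main Rab of synaptic vesicles, had no assigned peak, nor had Rab3b, Rab3c, Rab8a, Rab8b, Rab13, Rab27a, Rab27b or Rab37. The 4 with a peak were Rab12, Rab10, Rab3d and Rab26. Rab12 (ENSMUSG00000023460), a substrate of the kinase LRRK2, reached a fold of 43.1 on chromosome 17, 66519201 to 66519900 (700 bp, over the TSS, the authors' p = 6.38e-18), while Rab10, Rab3d and Rab26 had 19.9, 16.2 and 14.8. Only Rab12 of these 4 was above the median of all promoter peaks.

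The 5 peaks of late endosome, lysosome-related and cilium Rabs had folds within a narrow range, 23.5 to 26.2, all above the median of all promoter peaks. Rab7, which takes late endosomes to lysosomes, had 26.2, Rab24, linked to autophagy, 25.6, Rab23, a negative regulator of Hedgehog signalling, 24.8, Rab9b 23.6 and Rab28 23.5. Rab7b, Rab9, Rab29, Rab32, Rab38, Rab42 and Rab44 had no assigned peak. In the Rab40 subfamily, Rab40c (ENSMUSG00000025730) had 41.6 at chromosome 17, 25919101 to 25920100 (1000 bp, over the TSS, the authors' p = 1.57e-26) and Rab40b had 20.8.

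**Figure D2:**
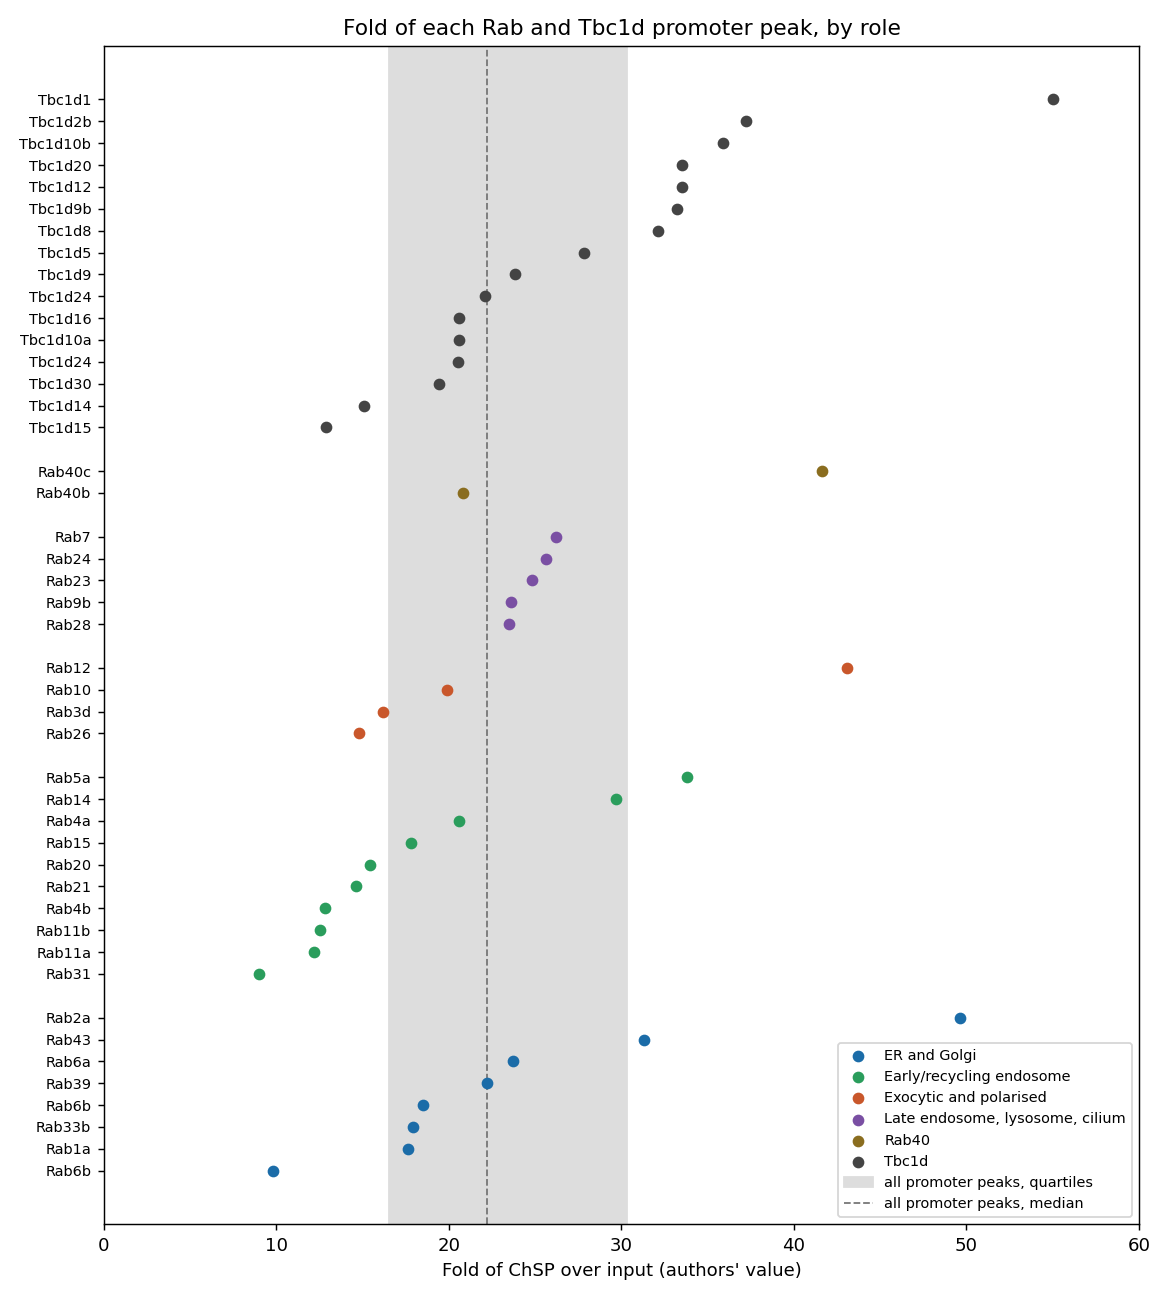
Fold of ChSP over input (x axis, linear, the authors' values) of each of the 45 Rab and Tbc1d promoter peaks, coloured and grouped by compartment; the grey band spans the quartiles of all 7599 promoter peaks and the dashed line is their median. Tbc1d1 at 55.0 and Rab2a at 49.6 lie farthest to the right, the late endosome group lies between 23.5 and 26.2, and 8 of the 10 early endosome points lie left of the line.

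Tbc1d genes, named for the TBC domain that most Rab GTPase activating proteins share, included the highest fold of all members. Tbc1d1 (ENSMUSG00000029174), which controls glucose transporter traffic downstream of insulin and AMP-activated kinase, reached a fold of 55.0 on chromosome 5, 64229901 to 64230800 (900 bp, over the TSS, the authors' p = 6.06e-32), rank 116 among promoter peaks. Tbc1d2b (ENSMUSG00000037410) had 37.2 at chromosome 9, 90270401 to 90271100 (700 bp, the authors' p = 3.98e-15), and Tbc1d10b (ENSMUSG00000042492), a GAP of the Rab27 and Rab35 branches, had 35.9 at chromosome 7, 127208001 to 127208900 (900 bp, the authors' p = 3.47e-15). Tbc1d12 (ENSMUSG00000048720) had 33.5 in a peak of 1300 bp, the widest of the members, at chromosome 19, 38836301 to 38837600 (the authors' p = 7.60e-21). All 4 peaks covered a TSS.

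Tbc1d20, the GAP of Rab1 at the ER, had a fold of 33.5, Tbc1d9b had 33.2, Tbc1d8 had 32.1 and Tbc1d5, a partner of retromer and GAP of Rab7, had 27.8. Lower folds were found at Tbc1d9 (23.8), Tbc1d16 (20.6), Tbc1d10a (20.6), Tbc1d30 (19.4), Tbc1d14 (15.1), which links recycling endosomes to autophagy, and Tbc1d15 (12.9), another GAP of Rab7. Tbc1d24 (ENSMUSG00000036473), an epilepsy gene whose protein acts on synaptic vesicles, had 2 promoter peaks 500 bp apart. One covered its TSS at chromosome 17, 24205201 to 24205900 (fold 22.1, the authors' p = 2.65e-19) and the other lay 839 bp upstream at 24206401 to 24207100 (fold 20.5, the authors' p = 2.38e-13). The single Tbc1d gene with a peak only far from its TSS was Tbc1d2, a GAP of Rab7. That peak (fold 21.3, 500 bp, the authors' p = 8.49e-10) lay at -66.4 kb from the TSS, on chromosome 4, 46716601 to 46717100, in intron 13 of 18 of Gabbr2, which encodes a GABA-B receptor subunit. No peak was assigned to Tbc1d4, Tbc1d7, Tbc1d8b, Tbc1d10c, Tbc1d13, Tbc1d17, Tbc1d19, Tbc1d21, Tbc1d22a, Tbc1d22b, Tbc1d23, Tbc1d25, Tbc1d31 or Tbc1d32.

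Paralogs were set side by side. Of 21 sets, 6 had an assigned promoter peak at every member, 12 at some and 3 at none. With such a peak at 47.5% of Rab genes and 50% of Tbc1d genes, nothing is read from the count of 12. It includes the set of Rab31 and Rab22a, in which a peak covering the start of Rab22a was assigned to another gene. Both genes carried one in the Rab4, Rab6, Rab11, Rab40, Tbc1d9 and Tbc1d12/Tbc1d14 sets. The genes with a peak in the other sets included Rab1a but not Rab1b, Rab2a but not Rab2b, Rab5a but not Rab5b or Rab5c, Rab3d but not Rab3a, Rab3b or Rab3c, Rab33b but not Rab33a, and Tbc1d1 but not Tbc1d4. The Tbc1d1 peak lay at a start site 74.1 kb inside the gene. The Rab8, Rab27 and Tbc1d22 sets had no assigned promoter peak. A missing peak says that none passed the authors' threshold and was assigned to the gene, not that KLF13 was absent.

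The authors' annotation gives each peak to 1 gene, which left out peaks at 2 Rab promoters. A 41.6-fold peak on chromosome 5, 115631501 to 115632600 (the authors' p = 3.15e-24) covered the end of Rab35 that holds the TSS printed above, and it was assigned to 1110006O24Rik. Rab35 is a GTPase of fast endosomal recycling and neurite growth. A 32.2-fold peak on chromosome 2, 173659401 to 173660400 (the authors' p = 2.18e-23) covered the start of the early endosome gene Rab22a and was assigned to the pseudogene Ppp4r1l-ps. The Rab22a promoter window held 7 GC box cores, the most of any member window. Peaks assigned to other genes were also found within 1 kb of a gene end at Rab1b (assigned to Cnih2, fold 32.3) and Tbc1d10c (Ppp1ca, fold 28.8). That at Rab1b lay 407 bp beyond the 3′ end of the gene, not at its promoter. Conversely, 5 of the 45 member promoter peaks (11.1%) came within 1 kb of the end of a further protein-coding gene. They were at Rab6a, Rab24, Rab4b, Tbc1d16 and Tbc1d10b. The share was 10.8% over the 7318 promoter peaks assigned to protein-coding genes of the RefSeq table.

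When a peak at either gene end was counted, whichever gene it was assigned to, 30 of 59 Rab genes (50.8%) and 13 of 30 Tbc1d genes (43.3%) had one, against 31.8% of all protein-coding genes. Tbc1d1, Tbc1d5, Tbc1d14, Tbc1d30 and Rab21 were not counted by their own peaks here, since these lay at start sites inside the gene. Rab1b was counted by the peak at its 3′ end. Of the 45 member promoter peaks, 5 (11.1%) lay more than 1 kb from the outermost 5′ end of the gene in the RefSeq table. The share was 16.7% over the 7318 promoter peaks assigned to protein-coding genes of that table. The TSS of the Tbc1d1 peak was 74.1 kb inside the gene, that of Tbc1d30 40.5 kb, that of Tbc1d14 4.48 kb, that of Tbc1d5 1.85 kb and that of Rab21 1.83 kb. The highest fold among the members was thus at an internal start site of Tbc1d1.

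The peaks lay over or just downstream of start sites. Of the 45 promoter peaks 38 (84.4%) overlapped a TSS, against 78.7% of all promoter peaks. The centre of the peak was downstream of the TSS in 34 of 45 (75.6%), with a median of 132 bp downstream (quartiles 4.5 and 202), and in 73.9% of all promoter peaks, with a median of 118 bp. Median width was 700 bp in both, on a grid of 100 bp. Only 2 of the 47 peaks (4.26%) lay beyond 10 kb from a TSS, at Tbc1d2 and Rab31, against 10.7% of all peaks. Genes with 2 or more peaks were 3 of 44 (6.82%), against 15.8% of all genes with a peak. Chromosome 17, picked because it held the most member peaks, had 10 of the 47, at 8 of its 10 member genes, and 433 of the 9506 peaks in all. Over all chromosomes 44 of the 89 member genes had an assigned peak, and 33.6% of all protein-coding genes. The member genes of chromosomes 14, 15, 16 and 18 had no assigned peak.

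**Figure D3:**
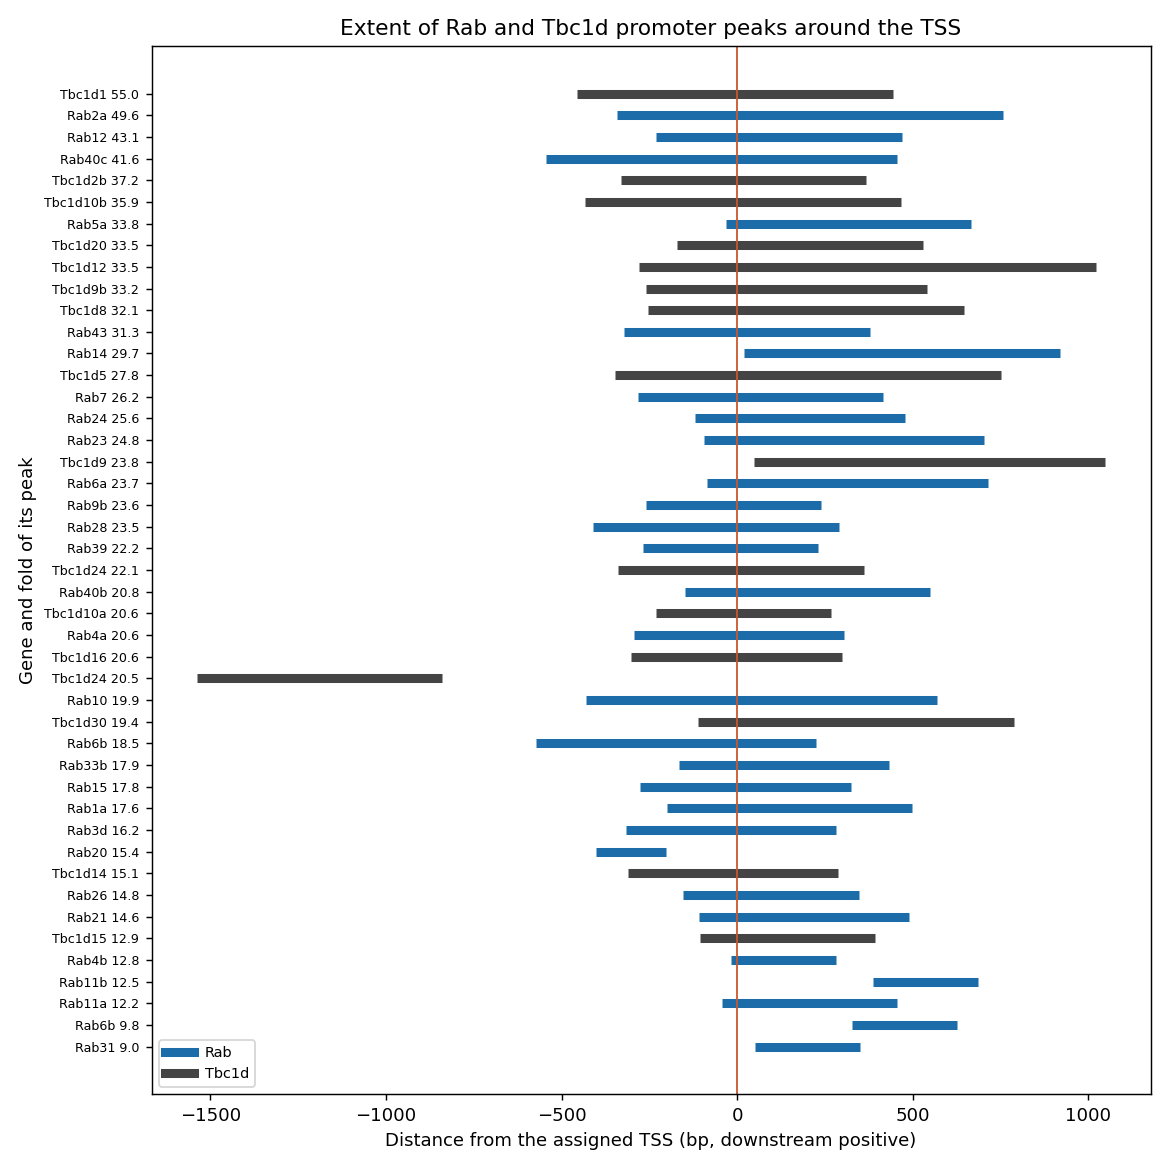
Extent of each of the 45 promoter peaks relative to its assigned TSS (x axis, bp, downstream positive), ordered by fold, which is printed after the gene name; blue bars are Rab and dark bars Tbc1d genes. Most bars cross the TSS line with more of their length downstream, and the upstream peak of Tbc1d24 and that of Rab20 are the 2 that lie wholly before it.

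Across the 45 member promoter peaks, fold rose with width (Spearman's rho 0.714) and with −log10 of the authors' p (rho 0.759), and the same held over all 7599 promoter peaks (0.664 and 0.761). These are descriptions across peaks of the same libraries. Width and fold come from the same reads.

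Promoter windows of the printed kind were at hand for 71 of the 89 member genes. Where a gene had several, the one under the peak with the highest fold was taken. A peak of the list overlapped 36 of the 71 windows, and 28.8% of the windows of 17492 genes. An overlap of any length counted, and matches were sought over the whole window. A match in an overlapped window can therefore lie outside the peak, as in that of Rab5a. The other 35 windows include those of Rab11b, Rab28, Rab31 and Tbc1d14, whose assigned promoter peaks lay outside the window. The GC box core GGGCGG, searched on both strands, was present in 31 of the 36 overlapped member windows (86.1%) and in 19 of the 35 others (54.3%), against 47.1% of all windows. Over all genes it was present in 82.8% of overlapped windows and 32.8% of the rest. The longer element CACGCCC was present in 13 of 36 overlapped windows (36.1%), among them Rab5a, Rab10, Rab14, Rab20, Rab3d and Tbc1d1, and in 3 of 35 others, Rab8b, Rab9 and Tbc1d2, against 11.3% of all windows and 19.8% of all overlapped ones. The shorter CACCC was present in 75% and 68.6% of member windows with and without a peak. Over all genes the shares were 67.6% and 54.9%, and 58.6% over all windows together. CACCC does not lie within CACGCCC, and the 3 motifs were counted separately.

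GC content moved with the presence of a peak. Its median was 68.7% in the overlapped member windows and 58.0% in the others, and 68.3% and 52.3% over all genes. Any GC-rich motif is found more often in such windows, and the part of GC content in the motif counts was not tested. A match is a string of letters in 300 bases, not a binding site.

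**Figure D4:**
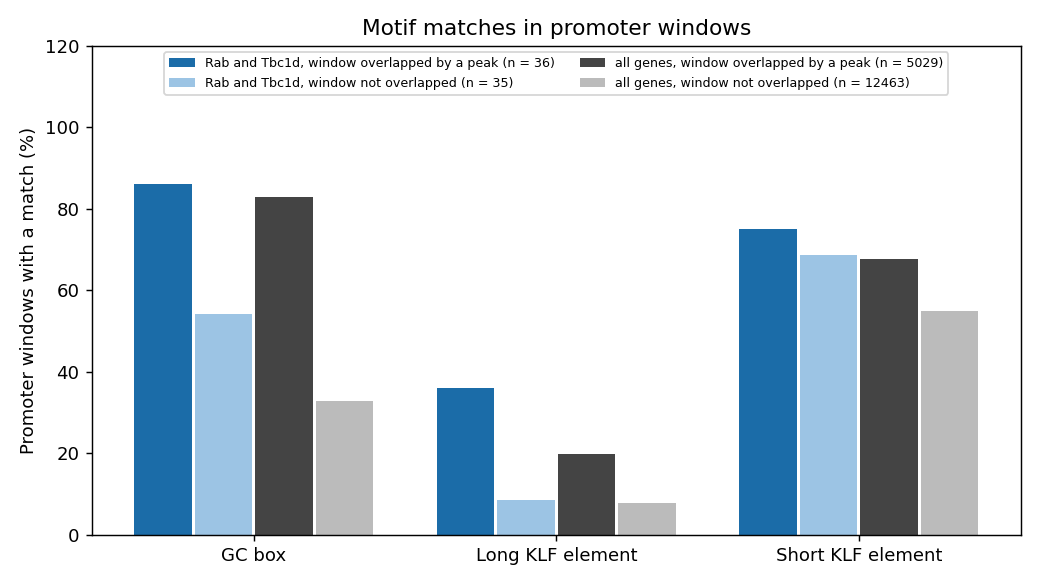
Share of promoter windows (y axis, percent) with a match to the GC box core, the longer and the shorter KLF element on either strand, for Rab and Tbc1d genes (blue) and all genes (grey), dark where a peak overlapped the window and light where none did. The GC box core is at 86.1% and 54.3% for member windows with and without a peak, and the longer element at 36.1% and 8.57%.

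The other genes of the Rab cycle were counted from fixed lists of regulators and effectors. Of 111 such genes 65 had a promoter peak, or 58.6% (exact 95% interval 48.8 to 67.8), beside the background of 30.9%. Guanine nucleotide exchange factors had one at 23 of 36 (63.9%), with folds of 61.4 at Sbf2, 51.2 at Rab3ip, which activates Rab8, and 43.2 at Dennd1b. No peak was assigned to Als2cl or Ankrd27, but one assigned elsewhere was within 1 kb of a gene end of Als2cl. Rab GTPase activating proteins outside the Tbc1d symbols had one at 8 of 12 (66.7%), with 50.8 at Grtp1, 45.7 at Usp6nl and 42.4 at Sgsm2. The 2 subunits of the Rab3 GTPase activating complex, Rab3gap1 and Rab3gap2, had none.

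Rab effectors had a promoter peak at 32 of 56 genes (57.1%, exact interval 43.2 to 70.3), against 30.9% of all protein-coding genes. The golgin gene Golga5 had a fold of 51.8, Rab11fip5, which binds Rab11, had 51.0, and Eea1, the early endosome tether that Rab5 recruits, had 50.4, while Ankfy1 and Bicd1 had none. Of the 7 genes that prenylate Rabs or shuttle them between membrane and cytosol, 2 had a promoter peak (28.6%, exact interval 3.67 to 71.0), close to that background. These were Gdi2, a GDP dissociation inhibitor, with 27.4, and Rabggtb, a prenyltransferase subunit, with 10.6. Chm and Chml, which encode the Rab escort proteins, had none.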

How the data were processed

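The files hold 1 deposited peak list covering 4 ChSP and 4 input libraries of HT22 cells. Its name gives PePr as the caller, and neither its version nor its settings were found in the labels. Per the labels, chromatin was sonicated. The submitters' processing notes list, with no role for each, the build GRCm38 and the tools HOMER 4.9.1, ChIPseeker 1.16.1, BWA 0.7.17-r1188 and FastQC 0.11.3. The fold (a linear ratio), the p-value and the adjusted p-value per peak were computed by the authors, and the deposited score, a constant multiple of the fold, was not used. Peak width, distance to the TSS and the assigned gene are as in the deposited list. How libraries were scaled is likewise unknown, and the list holds no counts.

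Peaks were joined by gene identifier to a RefSeq gene table on GRCm38.p6 that lists 21900 protein-coding genes, and all 47 member peaks matched. Shares carry exact binomial intervals. No test was made, because 1 value per peak leaves no replicates and gene lists were only described. Motif matches were counted in promoter windows of 300 bases. The counting was tested on simulated data. Members and gene lists were chosen with earlier results of these data known. The named genes were the 6 Rab and 4 Tbc1d genes with the highest promoter fold, the 3 lowest member peaks, genes with 2 or more peaks and peaks beyond 10 kb, all in full, and the other members by fold. From each further list the 3 highest and up to 2 without a peak were named. Symbols not found in the gene table were left out (2 of the ER and Golgi list, 2 of the late endosome list, 1 of the Rab40 list and 2 of the exchange factor list). Alternatives were a distance of 3 kb, any assigned peak, either gene end, only the 4753 peaks of smallest p, all but the 5% widest peaks, named genes only and, for the fold, 1 peak per gene. One neighbouring peak is not reported here. CACGCCC alone was added after seeing the data. Scripts ran in Python 3.11.15 with scipy 1.17.1, numpy 2.4.6, pandas 2.3.3 and matplotlib 3.10.9.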

Additional observations from a re-analysis of the deposited data

How the results depend on the processing

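No paired analysis was possible because each peak has 1 value for all libraries together, so no library could be left out either. Among the 4753 peaks with the smallest p, 30.5% of Rab genes and 36.7% of Tbc1d genes had a promoter peak. The share was 39.6% for the regulators and effectors, 43.0% for the listed other Ras superfamily genes and 18.6% for all protein-coding genes. That setting tests fewer peaks by construction. There the shares of Rab genes, of regulators and effectors and of other Ras superfamily genes fell below their main intervals. The Tbc1d share stayed within its own, and the background share fell as well. The background share was 31.6% at 3 kb, 33.6% with any assigned peak, 31.8% at either gene end, 29.3% without the 5% widest peaks and 33.5% over named genes only. The Rab and Tbc1d shares stayed within their main intervals at 3 kb, with any assigned peak, at either gene end and without the widest peaks, from 47.5% to 50.8% and from 43.3% to 53.3%. The median fold of Rab promoter peaks ran from 20.3 to 24.2 and that of Tbc1d peaks from 23.8 to 32.6, both highest among the peaks with the smallest p, where all promoter peaks had 28.2. CACCC or CACGCCC was present in 83.3% of overlapped member windows, against 74.1% of overlapped windows of all genes and 62.5% of all windows. CACGCCC alone was present in 36.1%, against 19.8% and 11.3%.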

Other observations

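Small GTPases of the Ras superfamily outside the Rabs were taken by a fixed set of gene symbols, which does not hold every such gene. Of the 86 genes taken, 49 had a promoter peak (57.0%, exact 95% interval 45.8 to 67.6), beside 30.9% of all protein-coding genes. The median fold over these 49 peaks was 24.8. The highest folds were at Rap1a (44.8), Rap1b (42.7) and Rap2c (42.4), GTPases of integrin adhesion and cell junctions, and Arf2 and Arl1 had no assigned peak. Of the 3 Rab-like genes with the Rabl symbol, Rabl6 had a promoter peak with a fold of 14.9, and Rabl2 and Rabl3 had none. The Rab share of 47.5% and the share of 57.0% in the genes taken from other branches have overlapping intervals. Their difference was not tested.

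Genes with a promoter peak were longer than genes without one. The median gene length was 25.2 kb for Rab genes with a peak and 19.1 kb for those without, 83.1 kb and 57.1 kb for Tbc1d genes, and 34.6 kb and 12.3 kb over all protein-coding genes. The part of gene length in the shares was not tested.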
